A study of Homo sapiens with 12 samples.

Results

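RGS proteins shorten the signals that G protein coupled receptors send. An active receptor loads a G alpha subunit with GTP and frees the G beta-gamma dimer, and an RGS protein speeds the hydrolysis of that GTP, so that the trimer forms again and the signal ends. In B cells this sets how long chemokine and lipid receptors signal during migration. The genes described here are 9 RGS genes and GNG7, which encodes a G gamma subunit, in JEKO-1 cells, a human mantle cell lymphoma line, treated with the nuclear export inhibitor KPT-330, with the salicylate salt choline salicylate (CS), or with both.

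These 10 genes, out of 64253 in the count table, were taken by symbol (RGS1, RGS2, RGS3, RGS10, RGS12, RGS13, RGS14, RGS16, RGS19 and GNG7). The family was chosen from measured values of these libraries: RGS1 and RGS19 for opposite interactions of the drugs, and GNG7 for its higher level with CS. For that reason RGS1, RGS19 and GNG7 are given without a p-value throughout, and no gene of the family has one for CS against DMSO or for the interaction. Of the 10 genes, 9 passed the filter on low counts and were among the 19460 genes tested. RGS13 did not pass.

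The groups were KPT-330+CS, CS, KPT-330 and DMSO, each with 3 libraries taken after 48 h. KPT-330 was dissolved in DMSO and CS in PBS. The sources used here do not say whether CS libraries also received DMSO, at which concentrations these cells were treated, or whether replicates were grown as separate cultures, and p-values measure only how these libraries vary, which may be technical variation. All groups are 1 cell line. Levels are in CPM, read counts relative to library sizes scaled by the trimmed mean of M values (TMM); a difference is a log2 fold change with its standard error (SE) from edgeR's quasi-likelihood test, and a gene was called higher or lower where its p, adjusted by Benjamini-Hochberg, was at most 0.05.

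Total counts ranged between 35325563 and 59490178 per library. All 9 B cell and mantle cell lymphoma markers averaged at least 1 CPM in every group, with a sum of 2178.8 to 3167.3 CPM over the 12 libraries. None of 7 T cell markers reached a mean of 1 CPM over the 12 libraries, although CD8A reached 1.33 CPM at its highest. The T cell markers summed to 3.66 to 4.0 CPM with KPT-330, against 1.00 to 1.26 CPM with DMSO. The 5 epithelial markers summed to 2.40 to 3.34 CPM with KPT-330, against 0.611 to 0.965 CPM with DMSO, and the 5 fibroblast markers to 2.65 to 2.99 CPM with KPT-330, against 0.873 to 1.76 CPM with DMSO. In the epithelial and in the fibroblast list 1 gene reached a mean of 1 CPM over the 12 libraries, and KRT19 and LUM had 0 reads in all. The 6 myeloid markers summed to 1.70 to 1.98 CPM with KPT-330, against 2.25 to 4.39 CPM with DMSO, and the natural killer and erythroid sums were at most 0.353 and 0.0603 CPM in any library. The part of these markers in the results was not tested. XPO1, the export receptor that KPT-330 binds, was higher with KPT-330 (1575.2 ± 38.0 CPM) than with DMSO (845.1 ± 87.7 CPM, SD, n = 3 each), by 0.90 ± 0.07 on the log2 scale (edgeR adjusted p = 7.64e-07). Counts leaned on GC content to an extent that varied between libraries. This GC slope, in log2 CPM per 10 GC points, was 0.128, 0.026 and -0.15 with KPT-330+CS, -0.229, -0.102 and 0.059 with CS, 0.203, 0.195 and 0.228 with KPT-330, and 0.087, -0.13 and -0.314 with DMSO. KPT-330 libraries stood above the others in this slope, and values after a correction for it are given wherever they differ by more than 1.5 times or change a call. Counts and medians of lists of other genes, and interactions of those genes, are given without that correction.

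RGS1 (ENSG00000090104, chromosome 1, 192575727 to 192580031), RGS13 (ENSG00000127074, 192636138 to 192660306) and RGS2 (ENSG00000116741, 192809039 to 192812283) lie in this order on the plus strand, and RGS16 (ENSG00000143333, 182598623 to 182604408) lies on the minus strand of the same chromosome. RGS12 (ENSG00000159788) is on chromosome 4 at 3293028 to 3439913, RGS14 (ENSG00000169220) on chromosome 5 at 177357837 to 177372601, and RGS3 (ENSG00000138835) on chromosome 9 at 113444731 to 113597743. RGS10 (ENSG00000148908) is on chromosome 10 at 119499828 to 119542708, GNG7 (ENSG00000176533) on chromosome 19 at 2511219 to 2702709, and RGS19 (ENSG00000171700) on chromosome 20 at 64073181 to 64079988. These are hg38 positions as the count table gives them. In the GENCODE 44 annotation, 0 exon bases of these genes were shared with another gene of the count table. Genes absent from that table were not checked. GC content of the longest transcript in that annotation ran from 35.1% in RGS13, 35.8% in RGS1 and 41.5% in RGS2 to 62.4% in RGS19 and 62.9% in RGS14.

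The start regions of 5 of these genes are shown to set the genes of opposite interaction, RGS1 and RGS19, beside GNG7 and RGS16, whose levels had the same order over the 4 conditions, and RGS2, which shares a chromosome with RGS1. Each runs from 250 bases before the RefSeq start to 50 bases from it, 300 bases in all, from RefSeq on GRCh38.p14 and on the gene's own strand: chr1:192575523-192575822 (plus) for RGS1, chr1:192808789-192809088 (plus) for RGS2, chr1:182604340-182604639 (minus) for RGS16, chr20:64079915-64080214 (minus, the first of 2 windows listed) for RGS19, and chr19:2702645-2702944 (minus) for GNG7. Capitals mark matches on either strand to the motifs searched, and overlapping matches run together: TATAAA for the TATA box, CCAAT for the site of NF-Y, GGGCGG for the box of Sp1, TGACGTCA for the cyclic AMP response element, and a form of the NF-kB site.
RGS1: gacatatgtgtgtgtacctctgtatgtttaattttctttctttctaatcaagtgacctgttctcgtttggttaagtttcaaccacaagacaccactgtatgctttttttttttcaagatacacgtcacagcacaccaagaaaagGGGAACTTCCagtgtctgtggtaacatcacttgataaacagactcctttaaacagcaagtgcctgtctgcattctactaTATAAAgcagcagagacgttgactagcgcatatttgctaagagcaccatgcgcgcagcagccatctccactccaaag
RGS2: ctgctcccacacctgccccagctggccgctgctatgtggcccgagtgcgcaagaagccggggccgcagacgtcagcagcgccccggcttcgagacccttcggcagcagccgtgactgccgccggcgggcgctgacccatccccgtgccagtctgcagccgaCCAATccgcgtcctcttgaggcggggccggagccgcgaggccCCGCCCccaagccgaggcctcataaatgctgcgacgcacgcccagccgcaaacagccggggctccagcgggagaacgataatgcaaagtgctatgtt
RGS16: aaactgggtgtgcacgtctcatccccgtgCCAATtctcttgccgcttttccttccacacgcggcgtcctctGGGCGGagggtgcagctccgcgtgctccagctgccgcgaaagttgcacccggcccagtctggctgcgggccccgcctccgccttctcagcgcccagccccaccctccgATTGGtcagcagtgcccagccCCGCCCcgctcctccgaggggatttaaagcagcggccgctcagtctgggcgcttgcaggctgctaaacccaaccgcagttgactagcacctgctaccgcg
RGS19: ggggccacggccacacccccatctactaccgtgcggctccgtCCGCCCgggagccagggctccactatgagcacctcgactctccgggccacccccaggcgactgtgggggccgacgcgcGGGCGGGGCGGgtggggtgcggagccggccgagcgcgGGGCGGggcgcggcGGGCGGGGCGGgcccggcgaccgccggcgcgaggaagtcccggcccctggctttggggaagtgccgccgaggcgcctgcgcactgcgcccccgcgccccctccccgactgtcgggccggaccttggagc
GNG7: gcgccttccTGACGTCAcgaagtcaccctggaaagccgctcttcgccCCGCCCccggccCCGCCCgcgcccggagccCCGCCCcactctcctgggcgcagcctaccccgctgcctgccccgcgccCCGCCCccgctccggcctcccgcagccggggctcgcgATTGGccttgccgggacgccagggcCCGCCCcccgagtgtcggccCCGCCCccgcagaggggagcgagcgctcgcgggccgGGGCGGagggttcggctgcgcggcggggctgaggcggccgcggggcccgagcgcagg
The RGS1 window was 41.7% GC, and 14.2% of the 35116 windows in the table had a lower GC content. It held 6 CpG, a TATAAA whose first base lies at -27 from the start, and 1 NF-kB match. The RGS19 window was 80.3% GC with 6 GGGCGG, and the GNG7 window 82.0% GC with 7 GGGCGG, 1 CCAAT and 1 TGACGTCA; lower values were found in 97.7% and 98.7% of windows. RGS2 held 1 CCAAT and 1 GGGCGG in a window of 69.7% GC, and RGS16 held 2 of each in a window of 67.0% GC. Over all windows the median GC content was 58.7%, and TATAAA was found in 11.5%, CCAAT in 34.6%, GGGCGG in 45.0%, TGACGTCA in 1.85% and the NF-kB form in 6.52%. A match of letters is a description and not a bound site.

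Per gene length as the count table gives it, RGS16 and RGS10 were the most abundant of these genes and RGS13 the least. That length need not be the length of a transcript: for RGS1 it is 4117 bases, close to the whole span of the gene. The order between genes depends on these lengths. With KPT-330+CS, RGS16 stood first at 34.2 ± 1.17 CPM per kb (SD, n = 3, as for the other levels per kb), followed by RGS10 at 15.2 ± 1.26 and RGS2 at 13.3 ± 1.09, which overlapped each other. GNG7 at 8.87 ± 1.25 and RGS19 at 2.41 ± 0.661 CPM per kb came next, and then RGS1, RGS14 and RGS12, at 1.28 ± 0.0902, 1.03 ± 0.243 and 0.704 ± 0.0875 CPM per kb, of which neighbours overlapped. With CS, RGS16 and RGS10 had overlapping levels of 19.1 ± 1.03 and 19.1 ± 0.381 CPM per kb, and RGS19 (5.63 ± 1.54) overlapped RGS2 (5.51 ± 0.541). With KPT-330 the order began with RGS16 (26.2 ± 0.875), RGS10 (17.7 ± 0.853), RGS2 (15.1 ± 0.337) and RGS19 (6.65 ± 0.193 CPM per kb). With DMSO RGS10 led at 19.8 ± 0.849 CPM per kb, above RGS16 at 16.0 ± 0.811 and RGS2 at 8.77 ± 1.08. GNG7 then stood at 1.69 ± 0.227, below RGS19 at 3.47 ± 0.901 CPM per kb, the reverse of their order with KPT-330+CS. RGS3 stayed below 0.23 CPM per kb in every library, its highest value being 0.229.

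**Figure D1:**
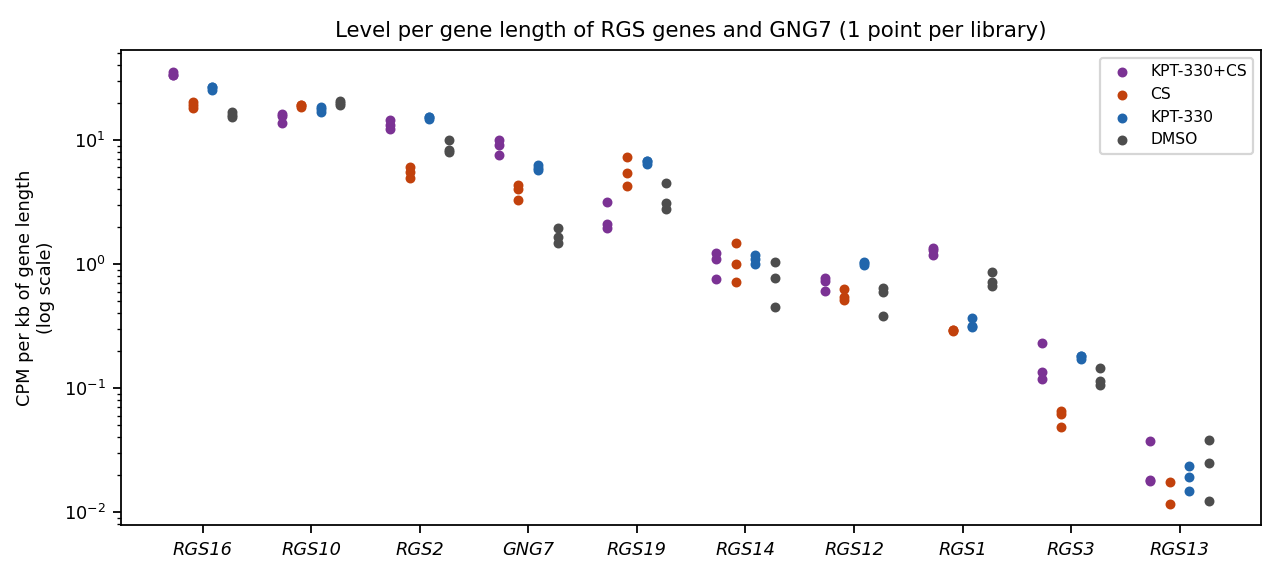
Level of each gene in CPM per kb of gene length on a log axis, with 1 point per library in 4 conditions; a library at 0 has no point. RGS16 and RGS10 lie at the top (34.2 and 15.2 CPM per kb on average with KPT-330+CS, 16.0 and 19.8 with DMSO) and RGS13 at the bottom.

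**Figure D2:**
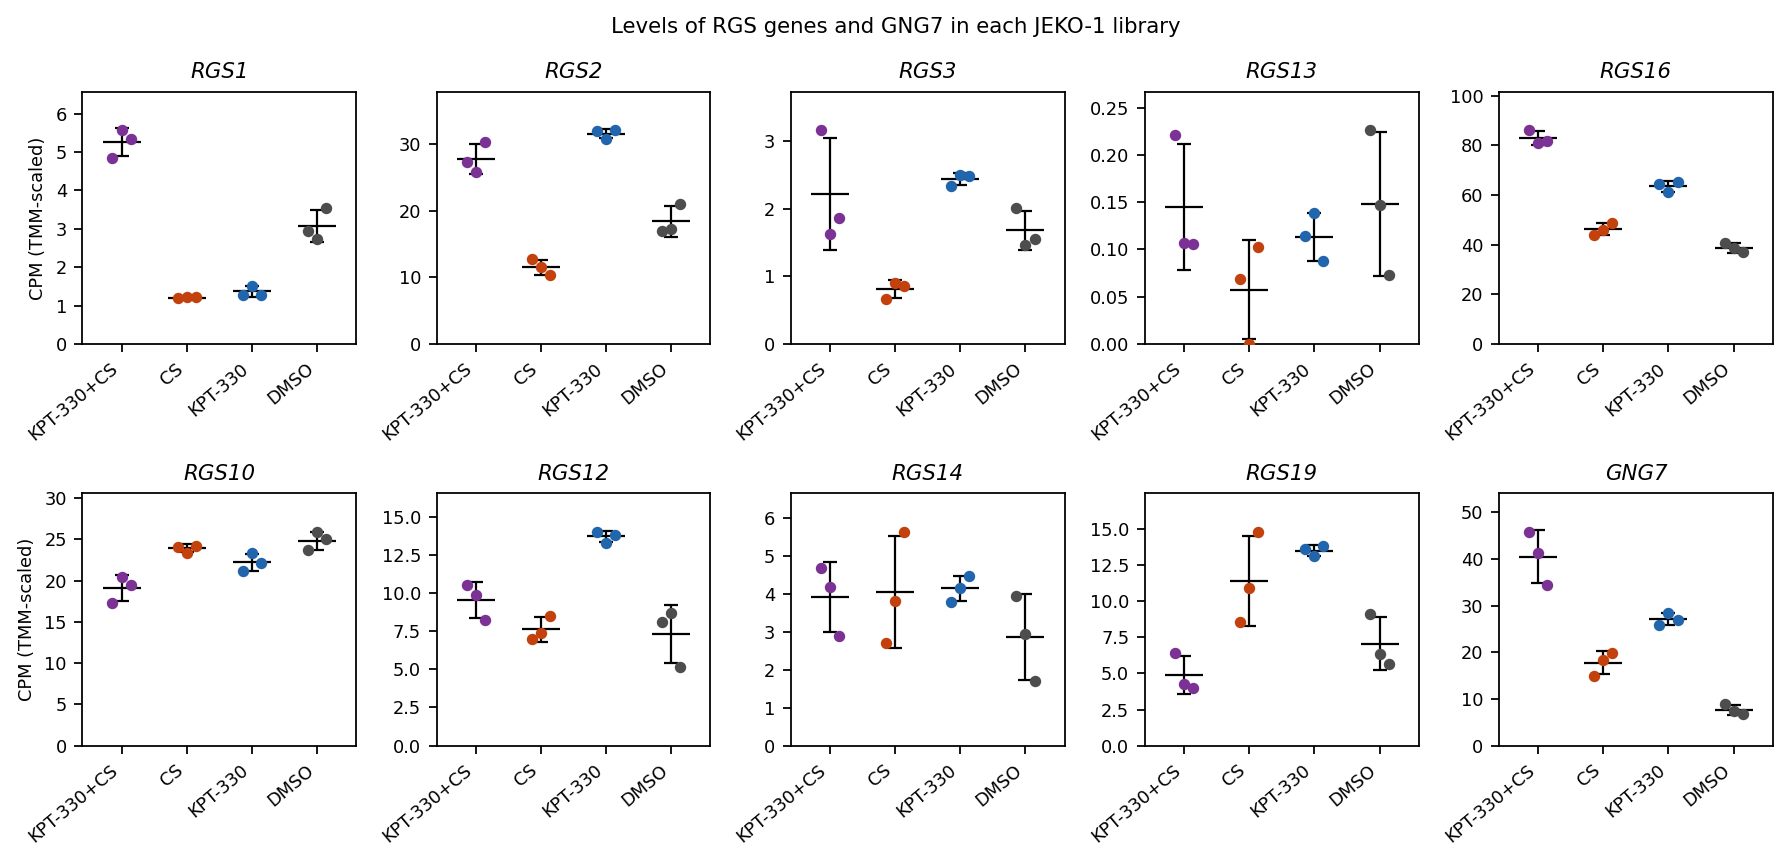
CPM of each gene in each of the 12 libraries, with the group mean ± SD as a bar and a linear axis from 0 for each gene. RGS1 is highest with both drugs and lowest with either alone, RGS19 is on average lowest with both drugs and highest with KPT-330, and GNG7 and RGS16 are highest with both drugs.

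RGS1 belongs to the R4 subfamily, small RGS proteins that act on Gi and Gq, and limits chemokine signalling in mouse B cells. It had 4.85, 5.57 and 5.35 CPM in the KPT-330+CS libraries, 1.20, 1.22 and 1.22 CPM with CS, 1.29, 1.52 and 1.28 CPM with KPT-330, and 2.94, 2.74 and 3.54 CPM with DMSO. Either drug alone thus went with less RGS1 than DMSO, and both together with more than DMSO, with no overlap between any of these groups. The log2 differences were -1.34 ± 0.14 for CS against DMSO, -1.17 ± 0.14 for KPT-330 against DMSO and 0.77 ± 0.13 for KPT-330+CS against DMSO. Set against the single drugs, KPT-330+CS was higher by 2.11 ± 0.14 than CS and by 1.94 ± 0.13 than KPT-330. Multiplying the effects of the single drugs would put RGS1 at 0.567 CPM with both, against an observed 5.29 CPM. These 2 values are geometric means with a prior count of 2 added, so they differ slightly from those of the CPMs above. The interaction in the edgeR fit was 3.28 ± 0.19 (log2). It was 3.09 after GC correction and between 3.09 and 3.36 over the alternatives. These values chose the gene and are a description, over 753, 182, 218 and 401 reads in KPT-330+CS, CS, KPT-330 and DMSO. As in all bulk samples, fewer cells that make a transcript and less of it per cell cannot be told apart.

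RGS19, of the RZ subfamily and also known as GAIP, acts on Gi and Gz subunits. It had 6.42, 4.27 and 3.96 CPM with KPT-330+CS, 8.56, 10.9 and 14.8 CPM with CS, 13.6, 13.1 and 13.8 CPM with KPT-330, and 9.12, 6.33 and 5.67 CPM with DMSO. KPT-330+CS libraries lay below all CS and KPT-330 libraries and overlapped DMSO, while the KPT-330 libraries lay above DMSO and the CS libraries overlapped DMSO. The log2 differences were 0.70 ± 0.22 for CS against DMSO, 0.93 ± 0.22 for KPT-330 against DMSO, -0.53 ± 0.23 for KPT-330+CS against DMSO and -1.46 ± 0.23 for KPT-330+CS against KPT-330. Multiplied effects of the single drugs would give 21.8 CPM, against an observed 4.81 CPM, both geometric means with a prior count of 2. The interaction in the edgeR fit was -2.16 ± 0.32 (log2). Within KPT-330+CS, CS and DMSO, the order of the RGS19 libraries was that of the GC slope. After GC correction the difference was 0.37 for KPT-330 against DMSO, -1.10 for KPT-330+CS against KPT-330, 0.27 instead of -0.24 for CS against KPT-330, and -1.73 for the interaction. Over the alternatives the RGS19 interaction lay between -2.41 and -1.73, and these values too are a description.

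**Figure D3:**
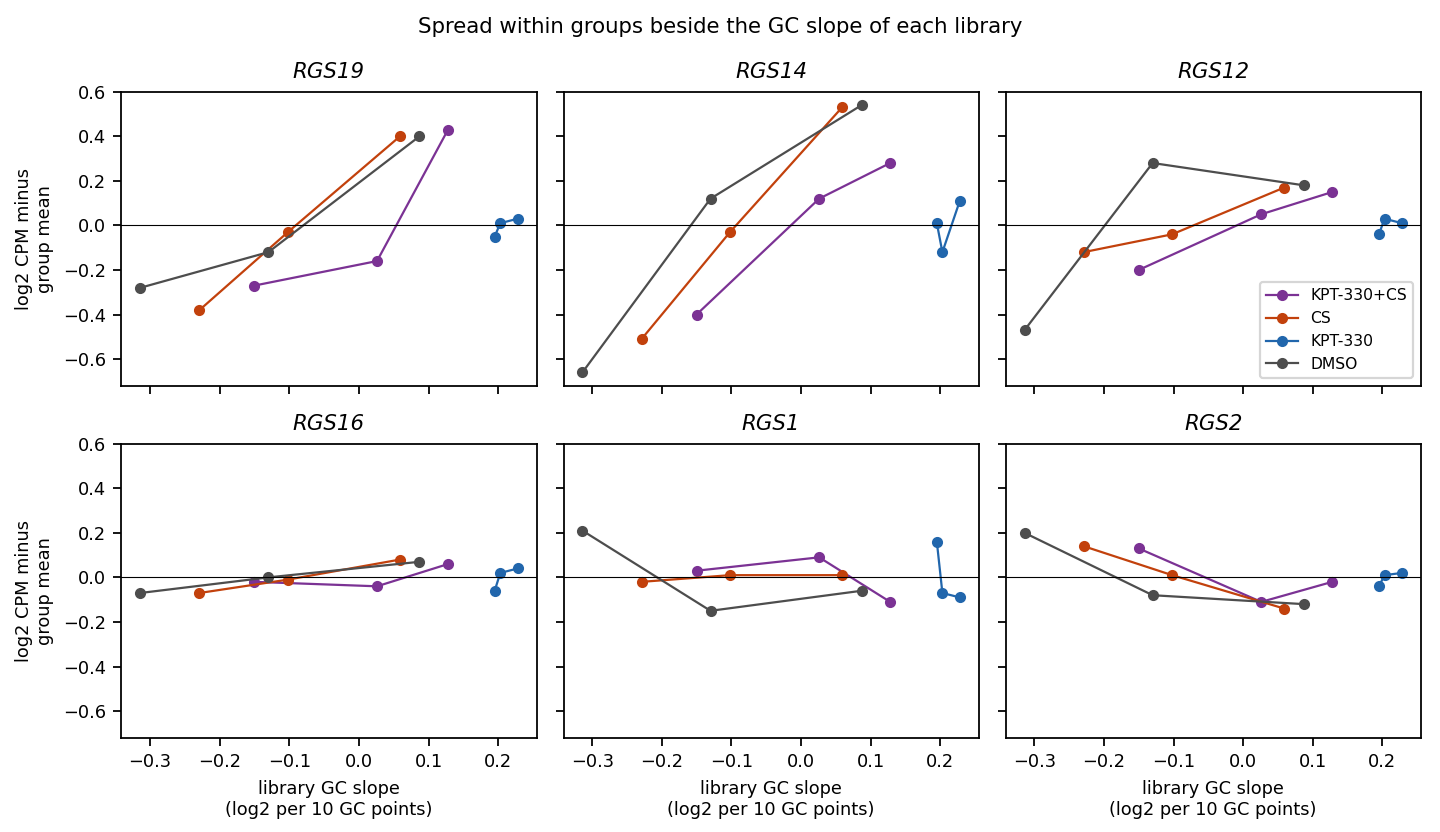
Deviation of each library from its group mean (log2 CPM) against the GC slope of that library (log2 CPM per 10 GC points), 1 panel per gene and 1 line per condition. RGS19 runs upward with the slope in KPT-330+CS, CS and DMSO (for CS, -0.38 to 0.40 between slopes of -0.229 and 0.059), while RGS16 stays within 0.08 of its group mean.

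GNG7 encodes a G gamma subunit, part of the dimer that anchors a G alpha subunit at the membrane and signals on its own. It had 45.8, 41.2 and 34.4 CPM with KPT-330+CS, 15.0, 18.4 and 19.8 CPM with CS, 25.9, 28.5 and 26.9 CPM with KPT-330, and 8.83, 7.48 and 6.79 CPM with DMSO. No group overlapped another, and each drug went with more GNG7 both alone and on top of the other drug. Within KPT-330+CS, CS and DMSO, the GNG7 libraries too stood in the order of the GC slope. With CS they ran from -0.23 to 0.17 (log2) around the group mean. On the log2 scale KPT-330 stood 1.81 ± 0.13 above DMSO, and KPT-330+CS 1.19 ± 0.12 above CS; no p is given, since the DMSO and CS libraries chose the gene. The CS differences, on which it was chosen, were 1.20 ± 0.13 against DMSO and 0.58 ± 0.12 for KPT-330+CS against KPT-330. KPT-330+CS stood 2.39 ± 0.13 above DMSO, and CS against KPT-330 was -0.61 ± 0.12 (-0.27 after GC correction). Multiplied single-drug effects would give 62.3 CPM with both drugs, against an observed 40.2 CPM, both geometric means with a prior count of 2. The interaction in the edgeR fit was -0.63 ± 0.18, and -0.38 after GC correction.

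Of the other R4 genes among the 10, RGS16 and RGS2 were called higher with KPT-330 than with DMSO, RGS3 was not called and RGS13 was not tested. RGS16, a p53 target that acts on Gi and Gq, had 86.1, 80.8 and 81.8 CPM with KPT-330+CS, 43.9, 46.0 and 48.9 CPM with CS, 64.4, 61.1 and 65.1 CPM with KPT-330, and 40.8, 38.7 and 36.9 CPM with DMSO. The 4 groups did not overlap, in the order KPT-330+CS, KPT-330, CS and DMSO. RGS16 rose by 0.71 ± 0.06 (log2) with KPT-330 against DMSO (edgeR adjusted p = 8.34e-07) and by 1.09 ± 0.06 with KPT-330+CS against DMSO (adjusted p = 6.6e-09). KPT-330+CS was also above CS, by 0.84 ± 0.06 (adjusted p = 1.18e-07), and above KPT-330, by 0.38 ± 0.06 (adjusted p = 0.000255). CS against DMSO differed by 0.25 ± 0.06, given without a test, and the interaction was 0.13 ± 0.08: the observed 82.9 CPM with both drugs lay close to the 75.7 CPM that the multiplied effects give.

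RGS2, which acts mainly on Gq, had 27.4, 25.8 and 30.3 CPM with KPT-330+CS, 12.7, 11.6 and 10.4 CPM with CS, 32.0, 30.8 and 32.1 CPM with KPT-330, and 16.9, 17.3 and 21.0 CPM with DMSO. The libraries of the 2 conditions with KPT-330 lay above those of DMSO, and those of CS lay below. RGS2 rose by 0.78 ± 0.10 (log2) with KPT-330 (edgeR adjusted p = 2.72e-05) and by 0.60 ± 0.10 with KPT-330+CS (adjusted p = 0.000164), both against DMSO, and was 1.27 ± 0.10 higher with KPT-330+CS than with CS (adjusted p = 3.12e-07). CS against DMSO was -0.67 ± 0.10, without a test, and CS against KPT-330 was -1.46 ± 0.10 (adjusted p = 1.93e-07). KPT-330+CS against KPT-330 differed by -0.19 ± 0.10, which was not called (adjusted p = 0.150), but was called after GC correction at -0.30 (adjusted p = 0.000417) and without the lowest-GC-slope libraries at -0.25.

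RGS3, the longest of these R4 genes, was scarce: 3.16, 1.63 and 1.87 CPM with KPT-330+CS, 0.667, 0.909 and 0.859 CPM with CS, 2.34, 2.50 and 2.48 CPM with KPT-330, and 2.01, 1.47 and 1.55 CPM with DMSO. The CS libraries lay below all others. RGS3 was 1.45 ± 0.24 higher (log2) with KPT-330+CS than with CS (edgeR adjusted p = 0.000264) and lower with CS than with KPT-330 (-1.58 ± 0.24, adjusted p = 0.000174). KPT-330 against DMSO, at 0.53 ± 0.22, was not called (adjusted p = 0.0639), although it was called in 6 of the 22 alternatives; after GC correction it was 0.14. CS against DMSO was -1.04 ± 0.25 and the interaction 0.91 ± 0.33, both without a test.

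RGS13, which in mice restrains chemokine responses of germinal centre B cells, was close to the limit of detection. Its reads per library were 11, 4 and 6 with KPT-330+CS, 3, 0 and 6 with CS, 6, 7 and 5 with KPT-330, and 11, 6 and 3 with DMSO. The sums were 21 reads with KPT-330+CS (exact Poisson 95% interval 13.0 to 32.1), 9 with CS (4.12 to 17.1), 18 with KPT-330 (10.7 to 28.4) and 20 with DMSO (12.2 to 30.9), intervals that cover counting error only. CS had the lowest sum, and no test between groups was run.

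Among the R12 subfamily, which acts on Gi, RGS12 was the gene that moved most with KPT-330. RGS12, a large protein with further signalling domains, had 10.5, 9.84 and 8.21 CPM with KPT-330+CS, 6.95, 7.36 and 8.52 CPM with CS, 14.0, 13.3 and 13.8 CPM with KPT-330, and 8.09, 8.66 and 5.14 CPM with DMSO. KPT-330 libraries lay above all others, and KPT-330+CS, CS and DMSO overlapped. KPT-330 raised RGS12 against DMSO by 0.91 ± 0.16 (log2, edgeR adjusted p = 0.000485; 0.57 after GC correction), and CS was lower than KPT-330 (-0.85 ± 0.16, adjusted p = 0.000985; -0.54 after GC correction). KPT-330+CS was lower than KPT-330, with a difference of -0.53 ± 0.16 (adjusted p = 0.0202; -0.33 after GC correction), and this call was lost without KPT-330+CS replicate 3, KPT-330 replicate 1 or KPT-330 replicate 3. KPT-330+CS against DMSO, at 0.38 ± 0.16, was not called (adjusted p = 0.0627) but was called in 8 of the 22 alternatives, among them the GC correction at 0.24.

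RGS10, a short RGS protein common in immune cells, had 17.3, 20.4 and 19.5 CPM with KPT-330+CS, 24.1, 23.3 and 24.2 CPM with CS, 21.2, 23.3 and 22.1 CPM with KPT-330, and 23.7, 25.9 and 25.0 CPM with DMSO. KPT-330+CS libraries lay below all others. RGS10 fell with KPT-330+CS against DMSO (-0.38 ± 0.07 on the log2 scale, edgeR adjusted p = 0.000656) and against CS (-0.32 ± 0.07, adjusted p = 0.00272). Against KPT-330 it was -0.22 ± 0.07 (adjusted p = 0.0322), a call lost with no filter, with DESeq2, and without KPT-330+CS replicate 1 or 3 or KPT-330 replicate 2 or 3. KPT-330 against DMSO, at -0.16 ± 0.07, was not called (adjusted p = 0.0870).

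RGS14, which also carries a GoLoco motif that holds Gi in its GDP form, had 4.69, 4.19 and 2.90 CPM with KPT-330+CS, 2.71, 3.80 and 5.63 CPM with CS, 3.79, 4.16 and 4.46 CPM with KPT-330, and 3.94, 2.94 and 1.70 CPM with DMSO. All groups overlapped, and none of its 5 tested contrasts was called. The widest of these, KPT-330 against DMSO at 0.52 ± 0.29 (edgeR adjusted p = 0.155), was -0.04 after GC correction. Within KPT-330+CS, CS and DMSO the libraries again stood in the order of the GC slope, and after GC correction RGS14 was called higher with CS than with KPT-330, by 0.49 (adjusted p = 0.00243), where the uncorrected difference was -0.02 ± 0.28.

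**Figure D4:**
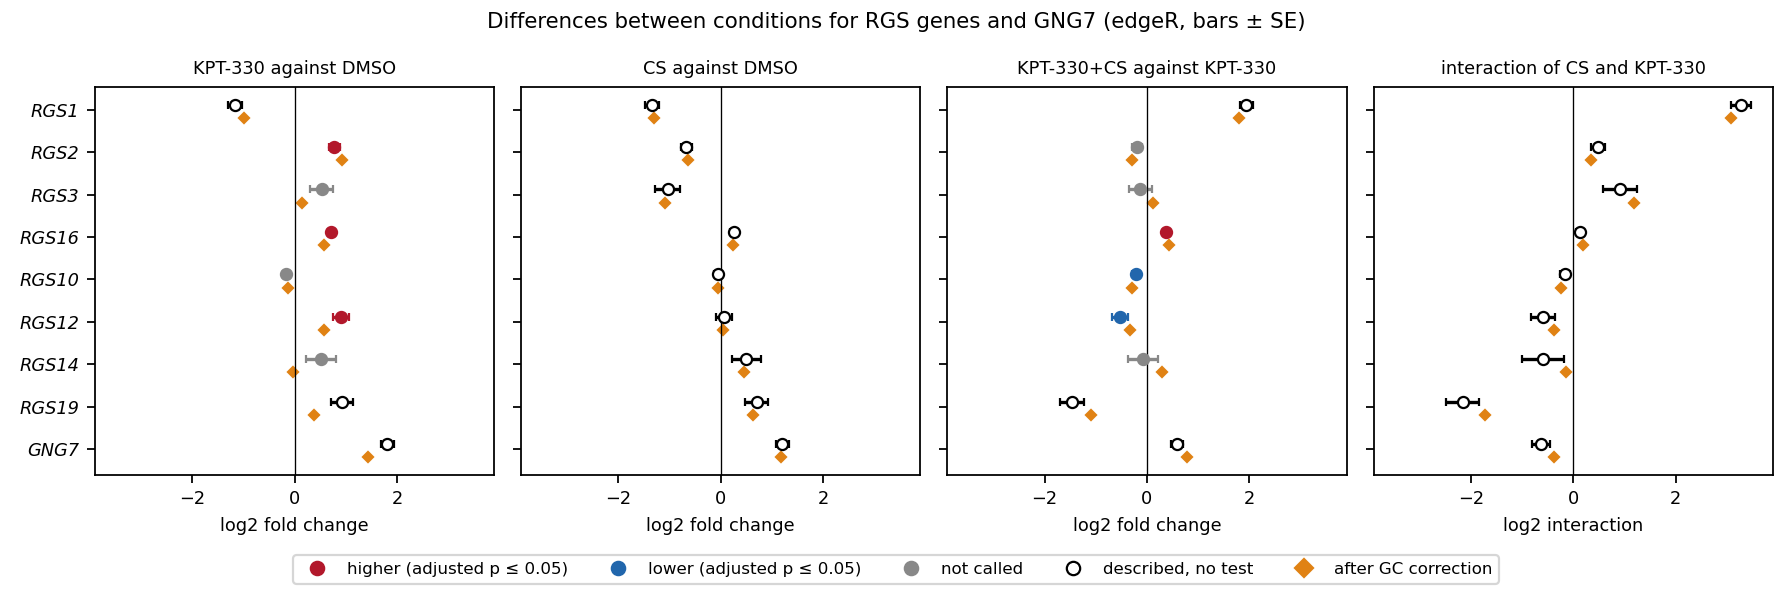
Log2 fold change of each tested gene in 3 comparisons, and the log2 interaction, with bars of ± 1 SE; filled circles were tested (red higher, blue lower, grey not called), open circles are descriptions, and orange diamonds are values after GC correction. The interaction runs from -2.16 for RGS19 to 3.28 for RGS1, and RGS14 in KPT-330 against DMSO is at 0.52 before and -0.04 after GC correction.

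By counts, KPT-330 against DMSO had 3 genes called higher (RGS12, RGS2 and RGS16) and 0 lower among the 6 with a test; over all tested genes 48.5% were called, 24.7% higher and 23.8% lower. KPT-330+CS against DMSO had 2 higher (RGS16 and RGS2) and 1 lower (RGS10) of 6, where 55.5% of all genes were called, 29.3% higher and 26.2% lower. CS against KPT-330 had 0 higher and 4 lower (RGS3, RGS2, RGS12 and RGS16) of 6, where 42.8% of all genes were called, 20.2% higher and 22.6% lower. KPT-330+CS against KPT-330 had 1 higher (RGS16) and 2 lower (RGS12 and RGS10) of 6, beside 37.6% of all genes (19.7% higher and 17.9% lower). KPT-330+CS against CS had 3 higher (RGS3, RGS2 and RGS16) and 1 lower (RGS10) of 6, beside 47.8% (26.1% higher and 21.7% lower). Counts of 3 or 4 among 6 genes are not read as a result about the family beside backgrounds of this size. Several of these comparisons share libraries and are not independent. For CS against DMSO, the contrast behind the choice of GNG7, 8.88% of all genes were called, and for the interaction, behind that of RGS1 and RGS19, 14.7%.

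By pattern over the 12 libraries, measured as the root mean square difference of gene-centred log2 CPM among 10741 genes of at least 5 CPM on average, the genes most like RGS1 were GABARAPL1 (0.42), DDIT4 (0.46) and SLC18B1 (0.54), where the spread of RGS1 itself was 0.86. GABARAPL1, an autophagy protein, averaged 13.0, 6.30, 3.87 and 9.04 CPM in KPT-330+CS, CS, KPT-330 and DMSO, and DDIT4, an inhibitor of mTORC1 signalling, averaged 11.0, 3.98, 5.49 and 5.84 CPM in the same groups. Among the genes most like RGS19 were VPREB3 (0.25) and thymidine kinase gene TK1 (0.26), beside a spread of 0.64 for RGS19 itself. VPREB3 averaged 21.3 CPM with KPT-330+CS, 34.3 with CS, 46.9 with KPT-330 and 24.1 with DMSO. These genes had a GC content of 57.5% (VPREB3) and 62.8% (TK1), beside 62.4% for RGS19. Most like GNG7 were the transcription factor gene ATF5 (0.13), YPEL1 (0.29) and C1orf115 (0.30), beside 0.90 for GNG7 itself. ATF5 averaged 135.1, 67.6, 101.5 and 32.4 CPM in KPT-330+CS, CS, KPT-330 and DMSO, the same order as GNG7.

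Other genes of the pathway were taken from lists drawn up by function. Over all tested genes, 24.7% were called higher and 23.8% lower in KPT-330 against DMSO, with a median of 0.04 log2. In KPT-330+CS against KPT-330 these shares were 19.7% and 17.9%, with a median of -0.001. Counts and medians of the lists are from the fit without GC correction and are not read as results about a list. Of the other RGS genes, 5 table rows passed the filter, and with KPT-330 against DMSO 2 were higher and 2 lower (median 0.03 log2, beside 0.04 over all tested genes). RGS6, of the R7 subfamily that pairs with GNB5, averaged 6.07 ± 0.527 CPM with KPT-330 and 4.47 ± 0.200 CPM with DMSO (SD, n = 3 each, as for the averages that follow), a rise of 0.44 ± 0.10 (log2, edgeR adjusted p = 0.00192; 0.29 after GC correction). It was higher again with both drugs, at 13.1 ± 0.469 CPM with KPT-330+CS and 6.07 ± 0.527 CPM with KPT-330 (1.11 ± 0.09, adjusted p = 1.91e-06). RGS5 was listed under 2 identifiers and is uncertain for that reason. In KPT-330+CS against KPT-330, 3 of these 5 rows were higher and 2 lower, but RGS5 makes up 2 of the 3 higher rows.

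Among 11 tested genes with an RGS box or an RGS partner role, 5 were higher and 2 lower in KPT-330 against DMSO (median 0.16), and 4 were higher and 1 lower in KPT-330+CS against KPT-330 (median 0.09). SNX13, a sorting nexin with an RGS-like domain, fell with KPT-330 against DMSO (-0.55 ± 0.07 log2, edgeR adjusted p = 2.88e-05; -0.36 after GC correction). AXIN1, a scaffold of the beta-catenin destruction complex, was called higher at 0.60 ± 0.23 (adjusted p = 0.0475), but was -0.02 after GC correction. AXIN2, a Wnt target, averaged 1.99 ± 0.232 CPM with KPT-330+CS and 4.33 ± 0.370 CPM with KPT-330 (-1.13 ± 0.17, adjusted p = 0.000184).

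Of 8 tested genes for GoLoco proteins and G alpha chaperones, 4 were higher and 2 lower in KPT-330 against DMSO (median 0.26), and 1 was higher and 1 lower in KPT-330+CS against KPT-330 (median 0.02). GPSM1, which binds GDP-bound Gi, averaged 2.93 ± 0.205 CPM with KPT-330 and 0.229 ± 0.137 CPM with DMSO (3.62 ± 0.39 log2, edgeR adjusted p = 7.04e-06). With KPT-330+CS it averaged 0.690 ± 0.276 CPM, lower than with KPT-330 (-2.12 ± 0.33, adjusted p = 0.000263). GPSM1 was near the floor with DMSO, at 18, 9 and 4 reads in replicates 1, 2 and 3, which fell with the GC slope. GPSM2, its relative in spindle orientation, fell to 29.6 ± 0.966 CPM with KPT-330, against 54.7 ± 5.42 CPM with DMSO (-0.89 ± 0.07, adjusted p = 5.88e-07).

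G protein subunits moved in both directions. Of 9 tested G alpha genes, 2 were higher and 2 lower in KPT-330 against DMSO (median 0.05), and 0 were higher and 2 lower in KPT-330+CS against KPT-330 (median -0.04). GNAZ, the Gz subunit on which RGS19 acts, averaged 5.27 ± 0.677 CPM with KPT-330 and 1.64 ± 0.541 CPM with DMSO (1.67 ± 0.22, edgeR adjusted p = 3.42e-05), and 2.85 ± 0.121 CPM with KPT-330+CS, below KPT-330 (-0.89 ± 0.20, adjusted p = 0.00412). GNAS, the Gs subunit and the most abundant G alpha gene not called, averaged 882.1 ± 18.4 CPM with KPT-330 and 854.8 ± 72.8 CPM with DMSO. Of 5 G beta genes, 2 were higher and 1 lower in KPT-330 against DMSO (median 0.34), and 1 was higher and 1 lower in KPT-330+CS against KPT-330 (median -0.28). GNB4 fell with KPT-330 against DMSO (-0.60 ± 0.09, adjusted p = 7.53e-05) and was higher with KPT-330+CS than with KPT-330 (0.45 ± 0.09, adjusted p = 0.00111).

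Of 6 tested G gamma genes besides GNG7, 3 were higher and 1 lower in KPT-330 against DMSO (median 0.45), and 2 were higher and 2 lower in KPT-330+CS against KPT-330 (median -0.17). GNG4 averaged 12.5 ± 0.670 CPM with KPT-330 and 3.91 ± 0.191 CPM with DMSO (1.67 ± 0.12, edgeR adjusted p = 2.24e-07), and was lower again with KPT-330+CS at 8.06 ± 0.0324 CPM (-0.63 ± 0.12 against KPT-330, adjusted p = 0.000948). GNG2 was higher with KPT-330 than with DMSO (0.82 ± 0.09, adjusted p = 1.04e-05), and higher with KPT-330+CS, at 83.9 ± 4.21 CPM, than with KPT-330, at 38.6 ± 1.80 CPM (1.12 ± 0.09, adjusted p = 1.44e-06). GNG2 thus followed the order of GNG7 between these groups, and GNG4 did not.

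Upstream, 7 of 21 tested receptor genes of B cells were higher and 7 lower in KPT-330 against DMSO (median 0.10), and 8 were higher and 4 lower in KPT-330+CS against KPT-330 (median 0.09). GPR183, the oxysterol receptor that places B cells in the follicle, averaged 63.1 ± 0.797 CPM with KPT-330 and 141.6 ± 15.3 CPM with DMSO (-1.16 ± 0.08, edgeR adjusted p = 2.39e-07). CNR1, a Gi-coupled cannabinoid receptor, averaged 323.0 ± 13.4 CPM with KPT-330+CS and 166.9 ± 0.811 CPM with KPT-330 (0.95 ± 0.06, adjusted p = 1.49e-07). CXCR5, the follicle homing receptor, was lower with KPT-330+CS than with KPT-330 (-0.85 ± 0.22, adjusted p = 0.00787). Of 7 tested receptor kinase and arrestin genes, 3 were higher and 2 lower in KPT-330 against DMSO (median 0.39), and 1 was higher and 2 lower in KPT-330+CS against KPT-330 (median -0.27). ARRB1, a beta-arrestin that ends receptor coupling, rose to 2.66 ± 0.598 CPM with KPT-330, against 0.714 ± 0.116 CPM with DMSO (1.89 ± 0.22, adjusted p = 1.39e-05).

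Downstream, 6 of 11 tested effector genes were higher and 1 lower in KPT-330 against DMSO (median 0.82), and 2 were higher and 3 lower in KPT-330+CS against KPT-330 (median -0.33). PLCB4, a phospholipase driven by Gq, averaged 24.5 ± 1.06 CPM with KPT-330 and 8.09 ± 0.908 CPM with DMSO (1.60 ± 0.11, edgeR adjusted p = 9.46e-08). ADCY7, an adenylyl cyclase of blood cells, fell with KPT-330 (-0.42 ± 0.07, adjusted p = 0.000444; -0.26 with library size alone). PIK3CG, the kinase that G beta-gamma activates, averaged 31.3 ± 0.782 CPM with KPT-330+CS and 15.4 ± 0.440 CPM with KPT-330 (1.03 ± 0.10, adjusted p = 5.57e-06), while ADCY3 averaged 20.7 ± 3.34 CPM with KPT-330+CS and 43.6 ± 1.67 CPM with KPT-330 (-1.08 ± 0.17, adjusted p = 0.000314).

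**Figure D5:**
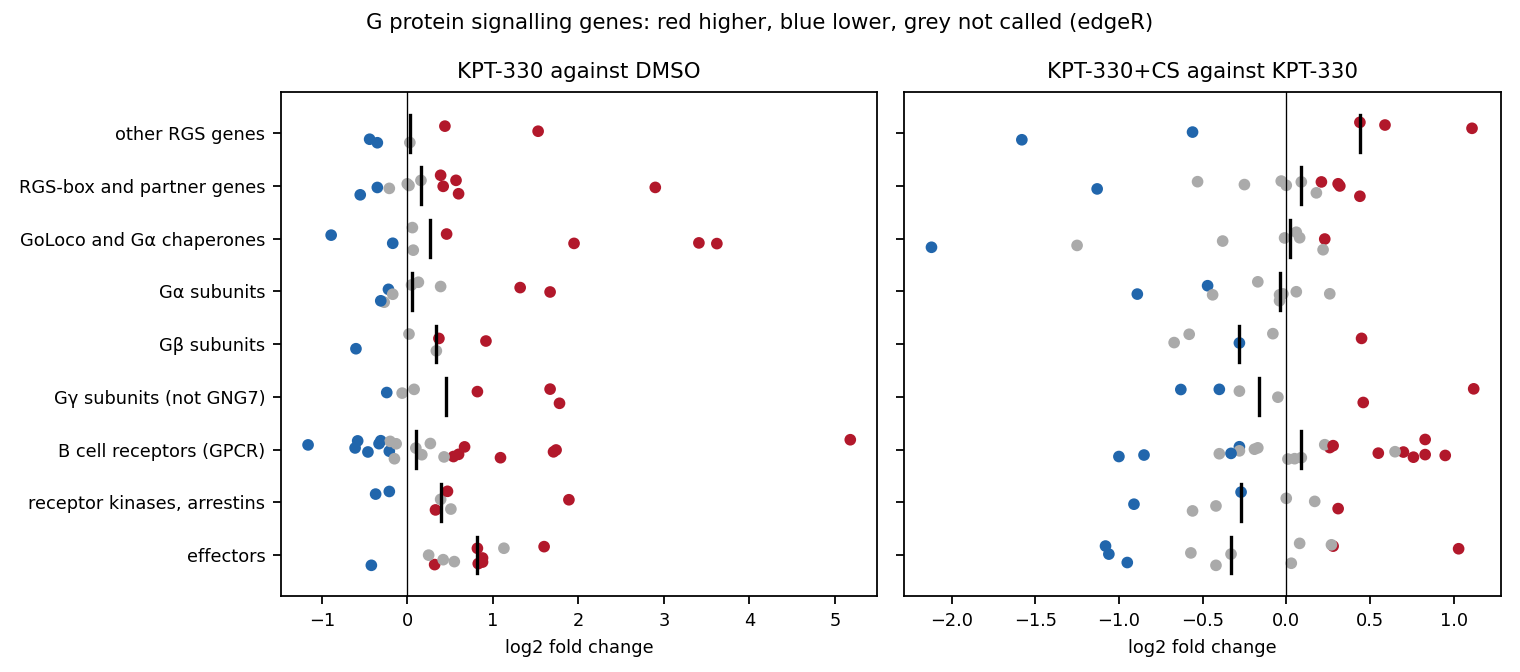
Log2 fold change of each tested gene in 9 lists of G protein signalling genes, for KPT-330 against DMSO and KPT-330+CS against KPT-330; red points were called higher, blue lower and grey not called, and black lines are medians. In the first panel each of the 9 lists holds called genes of both directions, and the effector list has the highest median there (0.82).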

How the data were processed

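RNA of JEKO-1 cells was extracted with a kit made for fixed tissue and sequenced as 12 unstranded poly(A) libraries, per the labels' protocols. Per the series' design text, reads were aligned to hg38 with STAR and counted per gene of Ensembl version 78; the program used for counting is not given in the sources used here. The values deposited by the authors are raw counts of 64253 genes, of which 28113 had no count in any library.

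Counts were tested in R 4.3.3 with edgeR 4.0.16 (filterByExpr by group, TMM, robust quasi-likelihood F-test, two-sided, group as the only term, 12 libraries in 1 fit, 8 residual degrees of freedom). P-values were Benjamini-Hochberg adjusted over 19460 tested genes; the SE is the log2 fold change divided by the root of F. The interaction is (KPT-330+CS minus KPT-330) minus (CS minus DMSO). Group CPMs are arithmetic means, and levels per kb use the gene length of the count table. Multiplied single-drug effects, and the observed values beside them, are geometric means from log2 CPM with a prior count of 2. For the GC correction a lowess curve (span 0.3) of log2 CPM on GC content, with a prior count of 2, entered the fit as an offset for each library; GC content was known for 97% of tested genes. Sequences and motifs came from RefSeq windows, and all 10 genes matched.

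The genes, lists and tests were chosen with earlier results of these data known. Tests of GNG7 set for 2 contrasts were dropped, because they use the libraries that chose it. All 10 genes are named, and from each list up to 2 called genes of each direction (at least 1 CPM) and the most abundant gene not called; some genes that these rules took are not reported here. The 22 alternatives were other scalings (DESeq2 size factors, library size alone), filters (none, or 1 CPM in 3 libraries) and tools (DESeq2 1.42.0, limma 3.58.1 voom), the replicate block, the GC correction, the compared groups alone, and libraries left out. Replicate numbers were not used to pair libraries in the main fit, and same-numbered libraries had correlations of their deviations between -0.384 and 0.401. Within KPT-330+CS, CS and DMSO the GC slope rose or fell in order of the replicate number. These correlations therefore cannot tell whether same-numbered libraries shared a culture or batch.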

Additional observations from a re-analysis of the deposited data

Results flagged for a closer look

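RGS1 is listed because CS and KPT-330 each went with less of it when given alone and with more of it when added to the other drug, in every library; the interaction was 3.28 (log2). RGS19 is listed because all 3 KPT-330 libraries lay above DMSO while all 3 KPT-330+CS libraries lay below CS, an interaction of -2.16. These differences were not tested, since they chose the genes.

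Among the pathway genes, the interaction itself was tested with edgeR's quasi-likelihood test, and 14.7% of all tested genes passed. Of 83 tested rows in the lists, 16 passed (19.3%), 7 above 0 and 9 below, of which 13 are genes that the naming rule took. These interactions are from the fit without GC correction, after which 5121 instead of 2853 of all tested genes passed. The value was above 0 for CNR1 (0.89, adjusted p = 2.56e-05), GPR183 (0.99, adjusted p = 0.000195), GNG2 (0.90, adjusted p = 0.000620), GNB4 (0.64, adjusted p = 0.00376), GNG10 (0.50, adjusted p = 0.0104) and GPR18 (0.48, adjusted p = 0.0165). GNG2 averaged 83.9, 25.5, 38.6 and 21.9 CPM in KPT-330+CS, CS, KPT-330 and DMSO, and CNR1 averaged 323.0, 219.7, 166.9 and 210.3 CPM. The value was below 0 for GPSM1 (-3.03, adjusted p = 0.00393), GNG4 (-1.0, adjusted p = 0.00188), ADCY3 (-1.11, adjusted p = 0.00844), AXIN2 (-0.89, adjusted p = 0.0213), GNAZ (-1.14, adjusted p = 0.0250), ARRB1 (-1.15, adjusted p = 0.0270) and CXCR5 (-1.07, adjusted p = 0.0329). GNAZ averaged 2.85, 1.95, 5.27 and 1.64 CPM in the same 4 groups. The GPSM1 value rests on few reads, 31 in all with DMSO and 68 with CS. The other 3, named after their values were seen, were CXCR4 (0.52, adjusted p = 0.000262), PTGER4 (-0.36, adjusted p = 0.0313) and 1 of 2 identifiers of CCR6 (-1.52, adjusted p = 0.00203), which is uncertain for that reason. All values are log2 over 3 libraries per group.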

How the results depend on the processing

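Of the values of the RGS genes and GNG7 over the 22 alternatives, 1337 were counted as the same, 19 became called, 9 lost the call and 12 with no test moved by more than the spread. A tested value was the same if it stayed on its side of the threshold, and a called one had to keep its direction too. Values with no test were the same if they moved by less than the largest SD within a group. An uncalled value could change sign, as RGS14 did in KPT-330 against DMSO (0.52, and -0.04 after GC correction). The count of these genes called in KPT-330+CS against KPT-330, 3, was 1 to 3 with 1 library left out, and was 1 without KPT-330+CS replicate 3 or KPT-330 replicate 3. Genes called among all tested for CS against DMSO, 1729, were 1036 with the replicate block, 4563 after GC correction, 249 with the compared groups only and 760 to 2580 with 1 library left out. For the interaction, 2853 genes became 5121 after GC correction and 1713 to 4711 with 1 library left out, and no fit of compared groups alone exists. AXIN1 in KPT-330 against DMSO was -0.02 after GC correction (adjusted p = 0.856), the 1 called value of a named pathway gene that changed direction. Of the other values of named pathway genes, 1538 were the same, 26 became called and 85 lost the call. Counts of called genes in the pathway lists were the same in 2418 cases and moved in 336. The replicate block changed no call of the 6 RGS genes with a test, while RGS1, RGS19 and GNG7 had no call that could change. Whether replicate numbers pair the libraries is not known. Scaling by library size alone moved the median of all genes to 0.20 for KPT-330 against DMSO, where TMM gave 0.041. The causes of these shifts were not tested. RGS13, at 9 to 21 reads per group, was not tested.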
